A study of Drosophila melanogaster with 22 samples.

Results

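Open chromatin of the larval central nervous system (CNS) was compared with that of the late embryo in Drosophila melanogaster. The members were all FAIRE peaks of both tissues on 2L, 2R, 3L, 3R, X and chromosome 4, taken by position alone. They numbered 9990 in the larval CNS and 13513 in the late embryo, together 23503 of the 181196 peaks on these arms in the 11 FAIRE lists of the series. FAIRE (formaldehyde-assisted isolation of regulatory elements) crosslinks and shears chromatin and keeps the fragments that phenol-chloroform leaves in the aqueous phase. Its peaks mark regions with few nucleosomes, such as active promoters and enhancers. The CNS came from larvae of the strain y;cn,bw,sp in the third instar, the last larval stage. The embryos were whole OregonR embryos, collected over 2 h and aged at 25 °C to 16 to 18 h after egg laying. Tissue, stage and strain therefore differed together between the groups and cannot be told apart. The other 9 lists were used to ask where else a peak recurred. They covered OregonR embryos at 2 to 4 h and 6 to 8 h, and tissues of y;cn,bw,sp animals. These were the eye-antennal, T3 leg, haltere and wing discs of the third instar, the epithelia from which the adult head and appendages form, and the T3 leg, haltere and wing of pharate adults at stage P14, shortly before eclosion.

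Each tissue had 1 deposited list, although the sample labels name 3 libraries behind the CNS list and 2 behind the late embryo list, and the series' design text gives 2 for each. There was thus no spread between replicates and no test between tissues, and intervals below are exact (Clopper-Pearson) 95% binomial intervals that cover counting error only. Each peak carried a score from the authors' peak caller. Its scale was not known, so scores were read within a list only. The number of reads behind each list was also not known, and list lengths carry any difference in depth.

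The fly nervous system is built in stages. Stem cells called neuroblasts delaminate in the embryo and make the larval neurons, most of them then rest, and they divide again in the larva to make the neurons of the adult. A late embryo thus already holds a differentiated nerve cord and brain, as one tissue among many, while the larval CNS holds those neurons with glia and with dividing neuroblasts and their progeny.

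Transcripts of neurons and glia were present in the late embryo. Of 20 neural marker genes with an FPKM (fragments per kilobase of transcript, a level per length) of at least 5 at 16 to 18 h or at 2 to 4 h, 15 were at least 2-fold higher at 16 to 18 h on the FPKM + 1 scale. These were 9 of 10 neuronal, 4 of 5 glial and 2 of 5 neuroblast genes. Over all 10190 genes so measured, the share at least 2-fold higher was 41.2%. The synaptic vesicle gene n-syb was listed at 432 FPKM at 16 to 18 h, against 0 at 2 to 4 h. Likewise Syt1, the calcium sensor of vesicle release, was listed at 265 FPKM against 0, and brp, a scaffold of the active zone, at 135 against 0. In the order 2 to 4 h, 6 to 8 h, 16 to 18 h, the pan-neuronal gene elav was listed at 65.9, 469 and 208 FPKM, and repo, which specifies glia, at 0.923, 48.2 and 87.6 FPKM. The 5 neuroblast genes that passed the minimum were all listed lower at 16 to 18 h than at 6 to 8 h. In the same order of stages, the neuroblast transcription factor gene dpn was listed at 314, 398 and 26.3 FPKM, and mira, the adaptor that sorts cell fate determinants, at 1629, 1699 and 101. Likewise wor, a Snail family factor gene of neuroblasts, had 5.40, 339 and 19.4 FPKM, and insc, which orients neuroblast division, 14.8, 193 and 137. Other tissues were present in the same embryos, with Mlc2 of muscle at 11238 FPKM, verm of trachea at 5183 and ple of cuticle tanning at 131 at 16 to 18 h. Summed over the listed markers, the 6 muscle genes stood at 80818 FPKM at 16 to 18 h and 291 at 2 to 4 h, and the 22 neural genes at 3316 and 2575, with 5146 at 6 to 8 h. All 3 tracheal and all 3 cuticle genes were at least 2-fold higher at 16 to 18 h, and 4 of 5 muscle genes that passed the minimum. Their part in the late embryo peak list was not tested. The muscle genes Mhc and up were listed at 29.4 and 43.4 FPKM at 6 to 8 h and at 0 at 16 to 18 h. The neural genes para and ase were listed at 0 at every stage. Whether a listed 0 stands for a measured level was not known, and such values enter the counts and sums above. Transcripts of the larval CNS were not analysed here, so its label was not set against marker levels.

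Fewer than 50% of the peaks of either list were shared. Of the 9990 larval CNS peaks, 4539 (45.4%, 44.5 to 46.4) overlapped a late embryo peak by at least 1 bp, and of the 13513 late embryo peaks 4541 (33.6%, 32.8 to 34.4) overlapped a CNS peak. One-sided peaks, those with no peak in the other of these 2 lists, numbered 5451 in the CNS (54.6%) and 8972 in the late embryo (66.4%). Where peaks were shared, they mostly lay on the same element. The median shared CNS peak had 80.4% of its length covered, and the median shared late embryo peak 86.9%. Among 4007 pairs in which 1 CNS peak met 1 late embryo peak, the centres lay a median of 66 bp apart, and 2542 (63.4%) were within 100 bp. Only 184 CNS peaks and 187 late embryo peaks met 2 or more peaks of the other list. Shared bases came to 1.71 Mb, which is 37.2% of the bases in CNS peaks and 30.0% of those in late embryo peaks.

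Sharing followed the score of the peak. In 10 classes of equal size from the lowest to the highest score, the shared part of CNS peaks was 27.4% in the lowest class, 42.1% in the fifth and 76.4% (73.6 to 79.0) in the highest. For late embryo peaks it stayed between 21.8% and 25.7% over the lowest 5 classes and was 67.7% (65.1 to 70.2) in the highest. Width moved with score. CNS peaks of at most 300 bp were shared in 30.3% of cases and those over 1 kb in 82.2%, and late embryo peaks in 25.0% and 67.9%. A wider peak has more room to meet another, and the part of width in these shares was not tested.

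**Figure D1:**
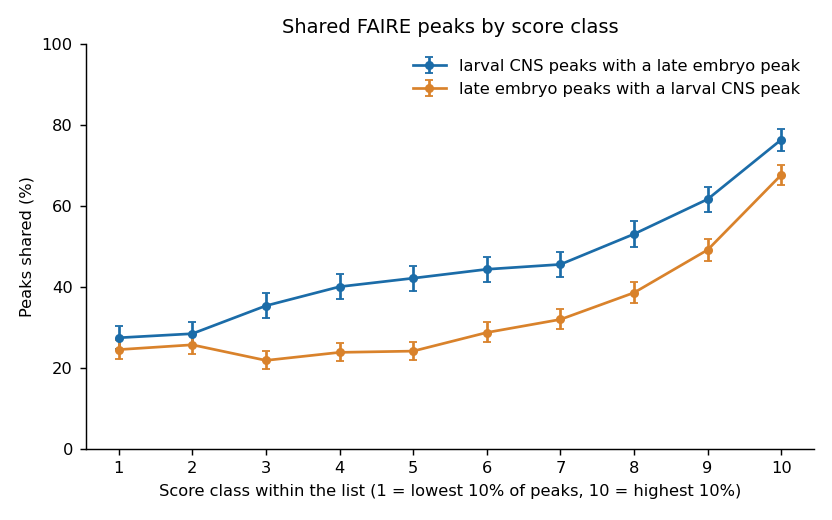
Share of peaks that overlap a peak of the other tissue (vertical axis, percent) in 10 classes of score within each list (horizontal axis), with larval CNS peaks in blue and late embryo peaks in orange. Bars are exact 95% binomial intervals; the CNS line climbs from 27.4% to 76.4%, and the late embryo line is flat over the lowest 5 classes and ends at 67.7%.

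Among the 9000 best-scoring peaks of each list, 3325 CNS peaks (36.9%, 35.9 to 38.0) and 3289 late embryo peaks (36.5%, 35.5 to 37.5) were shared, leaving 63.1% and 63.5% one-sided. Overlaps were nearly one to one, so equal list lengths make both shares nearly equal by construction. This selection left out 990 CNS peaks but 4513 late embryo peaks, so its lowest score was 5.78 in the CNS and 13.9 in the late embryo. Of the 5675 CNS peaks that were one-sided in it, 944 (16.6%) overlapped a late embryo peak of lower rank, against 167 (2.92%) of the 5711 late embryo peaks. Set beside other lists at the same number, the CNS shared 55.9% with the eye-antennal disc, 44.6% with embryos at 6 to 8 h, 43.1% with embryos at 2 to 4 h and 36.7% with the haltere disc, the lowest of the 10. The late embryo shared 58.0% with embryos at 6 to 8 h, 42.6% with embryos at 2 to 4 h and 38.1% with the eye-antennal disc, and its share with the CNS was the lowest of the 10. These comparisons use the same CNS or late embryo list each time and are given side by side only.

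The strongest peaks of both tissues were seldom the same. Of the 100 best CNS peaks, 11 overlapped one of the 100 best of the late embryo, 76 overlapped a lower peak and 13 had none. Of the 100 best late embryo peaks the numbers were 11, 71 and 18. Among the best 1000 they were 230, 534 and 236 for the CNS and 232, 472 and 296 for the late embryo. Over the 4007 single pairs, scores of the 2 lists had a Spearman correlation of 0.18 and widths one of 0.32, given as a description over peaks, which are not replicates and whose score and width both hang on read depth. The top CNS peak, at 3L 10314875 to 10315657 (score 133.1), ranked 8056 in the late embryo (score 16.0). The CNS peaks of ranks 3 and 4 ranked higher there. The one at 2L 21683416 to 21684282 (119.8) was number 189, and the one at 3R 12075095 to 12076505 (109.8) number 301. In the other direction, the top late embryo peak at 2L 4891669 to 4892398 (1298) was number 110 in the CNS (70.1), 2L 4811356 to 4812080 (851) was number 29, and 2R 16771878 to 16772467 (834) number 205. All but the first of these 6 regions had a peak in every one of the other 9 lists.

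One-sided peaks were weaker and narrower than shared ones, with wide overlap of the ranges. In the CNS, one-sided peaks had a median score of 11.6 (quartiles 7.45 and 18.1) and a median width of 347 bp, against 17.2 (10.6 and 27.9) and 438 bp for shared peaks. In the late embryo, one-sided peaks had a median score of 17.0 (11.1 and 30.1) and 343 bp, against 29.7 (14.3 and 69.0) and 409 bp for shared peaks. Peaks over 1 kb made 1.25% of one-sided and 6.92% of shared CNS peaks, and 1.06% and 4.43% of late embryo peaks. Strong one-sided peaks existed all the same, since the tenth of one-sided peaks with the highest scores began at 25.9 in the CNS and 55.1 in the late embryo.

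Many one-sided peaks lay near a peak of the other list. Of the 5451 in the CNS, 1593 (29.2%) were under 1 kb from a late embryo peak and 684 (12.5%) were beyond 10 kb. Of the 8972 in the late embryo, 1487 (16.6%) were under 1 kb from a CNS peak and 2988 (33.3%) beyond 10 kb. The late embryo list is the denser one, which shortens the distances of CNS peaks to it.

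Chromosome 4, the small and largely heterochromatic chromosome, had the highest one-sided share in both lists. There, 124 of 157 CNS peaks (79.0%, 71.8 to 85.1) and 147 of 182 late embryo peaks (80.8%, 74.3 to 86.2) were one-sided. Among the 9000 best peaks the shares were 81.5% and 72.4%. Of those CNS peaks on chromosome 4, 45 were found in the eye-antennal disc, 21 in embryos at 6 to 8 h and 6 to 12 in each appendage list, and 62 in no other list. Of those of the late embryo, 72 were found at 6 to 8 h, 60 in the eye-antennal disc and 2 to 5 in each appendage list. The appendage lists held 41 to 45 peaks on chromosome 4 in all. Peaks on chromosome 4 also had the lowest median score of any arm. It was 11.7 in the CNS, against 12.9 to 14.2 on the other arms, and 13.5 in the late embryo, against 18.3 to 21.1. The part of score in the one-sided share of chromosome 4 was not tested.

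The X chromosome stood apart in the late embryo. There, 1997 of 2837 X peaks (70.4%, 68.7 to 72.1) were one-sided, against 64.5% to 65.6% on 2L, 2R, 3L and 3R, and among the 9000 best peaks 68.9% against 60.9% to 62.9%. Of these one-sided X peaks, 794 (39.8%) were in no other list, against 27.2% to 30.3% on the 4 large autosomal arms. Their median score was 16.1, against 13.9 to 16.0 for their counterparts on those arms. In the CNS the X (56.2%) lay within the range of the large autosomal arms, from 50.3% on 2R to 57.7% on 2L. The CNS list held 1869 X peaks, against the 2837 of the late embryo. The embryo lists at 2 to 4 h and 6 to 8 h held 1779 and 1789, fewer than on each large autosomal arm. The part of these numbers in the X shares was not tested.

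Peaks shared by CNS and late embryo mostly recurred in 7 or more of the other 9 lists, and one-sided peaks did not. In the CNS, 65.8% of shared and 16.1% of one-sided peaks did so, and in the late embryo 65.2% and 18.1%. Shared peaks also scored higher and were wider, and the part of score and width in this contrast was not tested. Of the shared CNS peaks, 1927 of 4539 (42.5%) had a peak in all of the other 9 lists and 134 (2.95%) in none. Of one-sided CNS peaks, 235 of 5451 (4.31%) were in all 9 and 1657 (30.4%) in none. The late embryo gave 1918 of 4541 (42.2%) and 129 (2.84%) for shared peaks, and 462 of 8972 (5.15%) and 2805 (31.3%) for one-sided ones. Thus 3794 one-sided CNS peaks (69.6%, 68.4 to 70.8) and 6167 one-sided late embryo peaks (68.7%, 67.8 to 69.7) recurred somewhere. Those found nowhere else were weaker in the CNS, with a median score of 8.49 against 13.2 for those that recurred. In the late embryo the medians were 15.2 and 18.6.

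**Figure D2:**
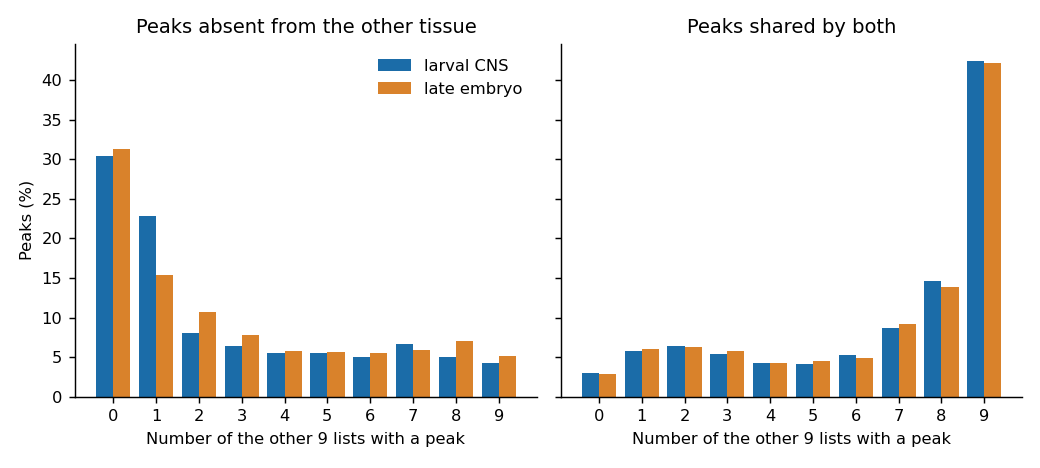
Number of the other 9 FAIRE lists in which a peak recurs (horizontal axis) against the percent of peaks (vertical axis), for one-sided peaks (left) and shared peaks (right), with the larval CNS in blue and the late embryo in orange. One-sided peaks gather at 0 lists (30.4% in the CNS, 31.3% in the late embryo) and shared peaks at 9 lists (42.5% and 42.2%).

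Where one-sided peaks recurred differed between the 2 tissues. CNS peaks absent from the late embryo were found most often in the eye-antennal disc, in 44.3% of cases (42.9 to 45.6), and least often in embryos at 6 to 8 h, in 18.6% (17.6 to 19.7). Late embryo peaks absent from the CNS showed the opposite order, with 40.7% (39.7 to 41.8) found at 6 to 8 h and 16.8% (16.0 to 17.6) in the eye-antennal disc. In the 6 appendage lists, larval and pharate, the shares ran from 24.3% to 34.6% for CNS peaks and from 30.2% to 38.8% for late embryo peaks. Over the 9000 best peaks of every list the contrast remained, at 46.2% in the eye-antennal disc and 21.6% at 6 to 8 h for the CNS, and 18.3% and 43.0% for the late embryo. The appendage lists then gave 18.7% to 24.1% and 23.8% to 26.5%. Peaks shared by both tissues were found in each of the 9 lists in 70.3% to 79.3% of cases. Leaving out shared peaks also takes out peaks of lists that resemble the other tissue, so the definition of one-sided peaks widens this contrast. Over all CNS peaks, shared or not, 56.3% were found in the eye-antennal disc and 46.2% at 6 to 8 h. Over all late embryo peaks the values were 34.97% and 53.6%. The order of these 2 lists was thus the same and the gaps were smaller. The lowest place of 6 to 8 h for the CNS did not hold. Over all CNS peaks the haltere disc (45.3%) and the wing disc (45.6%) were lower. Among one-sided CNS peaks of the 9000 best, both were lower too, at 18.7% and 20.7%. The eye-antennal disc stayed highest for the CNS in both settings. For the late embryo, 6 to 8 h stayed highest and the eye-antennal disc lowest. How much of the contrast comes from the definition was not tested. The eye-antennal disc contains the developing retina, whose neurons form in the third instar, and its list resembles that of the CNS in other ways too. Both have about the same length (9990 peaks in the CNS, 9975 in the disc), both hold peaks outside the 6 arms (211 and 455, against 0 in each of the remaining lists), and both have labels that give a barcode for each library. The part of these circumstances in their sharing was not tested. Without the eye-antennal disc list, 53.5% of one-sided CNS peaks recurred, and without the 2 earlier embryo lists 56.8% of one-sided late embryo peaks.

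**Figure D3:**
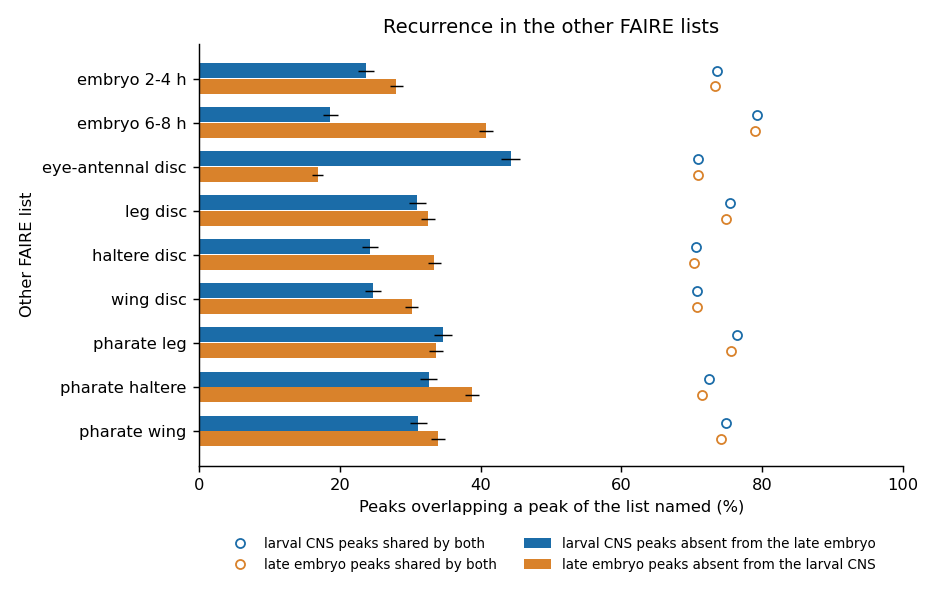
Share of peaks (horizontal axis, percent) that overlap a peak of each of the other 9 FAIRE lists (vertical axis). Bars are one-sided peaks of the larval CNS (blue) and late embryo (orange) with exact 95% binomial intervals, and open circles are shared peaks; the longest blue bar is the eye-antennal disc (44.3%) and the longest orange bar the embryo at 6 to 8 h (40.7%).

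Single partners of one-sided peaks showed the same contrast, with the same limit from the definition. Of the 1246 one-sided CNS peaks found in exactly 1 other list, 875 were in the eye-antennal disc, with a median score of 13.7, 146 in the pharate haltere and 76 in embryos at 6 to 8 h. Of the 1377 such late embryo peaks, 619 were in embryos at 6 to 8 h, with a median score of 26.7, 231 in the pharate haltere and 197 in the eye-antennal disc. The pharate haltere list is the longest, with 30374 peaks. Peaks in all 7 of the other y;cn,bw,sp lists and in neither earlier OregonR embryo list made 162 of the one-sided CNS peaks (2.97%) and 116 of the shared CNS peaks (2.56%). Peaks in at least 1 earlier embryo list and in none of the 7 made 1072 of the one-sided late embryo peaks (11.9%) and 198 of the shared late embryo peaks (4.36%). For one-sided CNS peaks this last pattern held in 231 cases (4.24%).

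The earlier embryo lists showed at which earlier stages one-sided peaks were also listed. Among CNS peaks absent from the late embryo, 3947 (72.4%) had no peak at either earlier stage, 489 (8.97%) had one at 2 to 4 h only, 211 (3.87%) at 6 to 8 h only and 804 (14.7%) at both. These 804 regions were thus listed as open in early and mid embryos and in the larval CNS, but not at 16 to 18 h. Whether they closed in between was not tested, since the embryo lists come from whole embryos. Among late embryo peaks absent from the CNS, 4968 (55.4%) had no earlier peak, 350 (3.90%) had one at 2 to 4 h only, 1494 (16.7%) at 6 to 8 h only and 2160 (24.1%) at both. Shared peaks were mostly open earlier as well. Of shared CNS peaks, 16.5% had no earlier peak, 4.16% had one at 2 to 4 h only, 10.0% at 6 to 8 h only and 69.4% at both, and of shared late embryo peaks 16.6%, 4.36%, 10.1% and 68.9%. The embryo list at 2 to 4 h is the longer of the earlier ones (13091 peaks, against 11096 at 6 to 8 h). The definition of one-sided peaks limits these counts too, since it takes out CNS peaks that meet a late embryo peak. Among the 9000 best peaks, the late embryo shared 58.0% with 6 to 8 h and 42.6% with 2 to 4 h. Over all CNS peaks, 46.4% were found at 2 to 4 h and 46.2% at 6 to 8 h. The part of the definition in the stage counts was not tested.

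The strongest one-sided peaks of the 2 tissues differed in how widely they were open. In the highest of the 10 score classes, one-sided late embryo peaks were found in 7 or more of the other 9 lists in 58.8% of cases, and one-sided CNS peaks in 23.7%. Up to the eighth class the shares lay between 5.66% and 25.2% in the CNS and between 10.8% and 23.3% in the late embryo. Of the 236 one-sided CNS peaks in the best 1000, 166 were in the eye-antennal disc, 35 in no other list and 56 in 7 or more, with a median of 2 lists. Of the 296 one-sided late embryo peaks in the best 1000, 139 were in the eye-antennal disc, 4 in no other list and 190 in 7 or more, with a median of 8. In the highest late embryo class 91.5% of one-sided peaks were also found at 6 to 8 h.

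**Figure D4:**
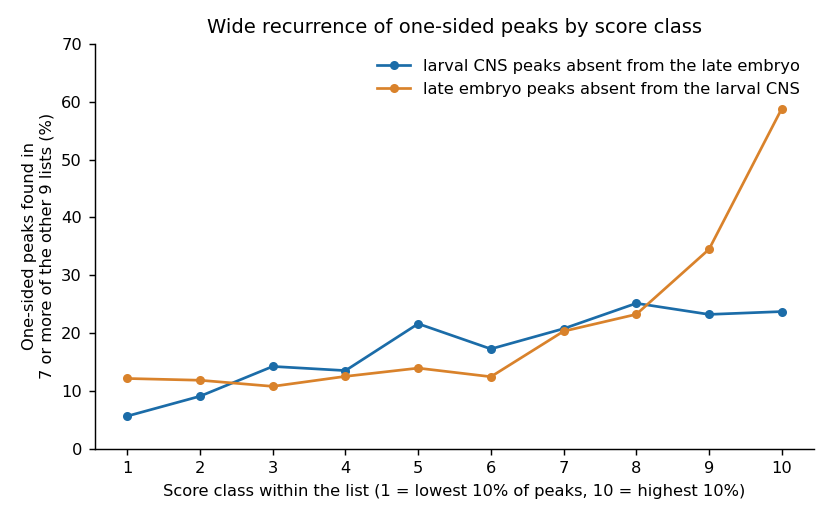
Share of one-sided peaks found in 7 or more of the other 9 FAIRE lists (vertical axis, percent) by score class within the list (horizontal axis), with larval CNS peaks in blue and late embryo peaks in orange. Up to class 8 neither line passes 25.2%; in class 10 the CNS stands at 23.7% and the late embryo at 58.8%.

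Of the 5 best one-sided CNS peaks, 3 recurred in a single list. The strongest, at 2L 9082759 to 9083399 (score 120.7, second in the CNS list), was 42.1 kb from the nearest late embryo peak and recurred in the eye-antennal disc alone, at rank 3816. The one at 3L 6645914 to 6646347 (87.7) recurred at 2 to 4 h alone, at rank 10519. At 3L 39812 to 41101 (86.0) lay a wide peak of 1290 bp that recurred in 7 lists, all but the earlier embryos. The peak at 3L 7636531 to 7637058 (83.5) recurred in the eye-antennal and wing discs, and 3L 9323050 to 9323620 (83.4) in the eye-antennal disc alone. The strongest CNS peaks with no peak in any of the other 10 lists were X 12281976 to 12282424 (82.4), 3R 24627479 to 24627920 (67.9) and 2L 17327786 to 17328334 (64.9), ranking 53, 124 and 140 in the CNS.

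A few strong CNS peaks were missing from the late embryo list alone. The best of those found in all of the other 9 lists were 3R 13544006 to 13545323 (74.2), 2L 8043201 to 8043586 (63.7) and 3L 15290323 to 15291249 (62.4). The first was 0.258 kb and the second 0.139 kb from a late embryo peak, so both were near misses of the overlap, while the third was 6.24 kb from one. The region on 3L ranked 80 in the eye-antennal disc and 4 in the pharate leg.

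The 5 best one-sided late embryo peaks recurred in 6 to 9 other lists each. They were 2R 9471492 to 9472781 (score 625.6, 6 lists), 2L 7276959 to 7277482 (577, 8 lists), 3L 18774653 to 18775278 (543, 9 lists), 2L 2175334 to 2175949 (539.8, 9 lists) and 2R 20208891 to 20209669 (509, 6 lists). Among them, the region on 3L ranked 21 in the late embryo, 4684 at 6 to 8 h and, among pharate appendages, 126 in the leg and 61 in the haltere. The region at 2L 7276959 ranked 18 in the late embryo and 39 at 6 to 8 h, and had no peak in the eye-antennal disc either. Another region of all 9 other lists, X 19191633 to 19192962 (469.7), was 20.5 kb from the nearest CNS peak. The strongest late embryo peaks found in no other list were 3R 9646205 to 9646702 (259.95), X 11538588 to 11539082 (144) and X 5244184 to 5244580 (119.5).

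Part of the one-sided peaks lay in clusters. A cluster was a run of at least 5 one-sided peaks with no more than 10 kb between neighbours, and shared peaks could lie between them. Summed scores of runs, given below, are over their one-sided peaks only. The CNS had 210 runs with 1422 peaks (26.1% of its one-sided peaks) and the late embryo 482 with 3668 (40.9%). Runs of 10 or more peaks numbered 21 in the CNS and 99 in the late embryo. The order depends on list length, since the 9000 best peaks of each list gave 245 runs in the CNS and 196 in the late embryo. No count of runs over all or shared peaks is given beside these. Whether one-sided peaks cluster more than peaks in general was therefore not tested. In 36 CNS runs there was no late embryo peak at all, and in 165 late embryo runs no CNS peak. Between the lists, 29 CNS runs (13.8%) overlapped 28 late embryo runs (5.81%). CNS runs spanned 4.89 Mb in all and late embryo runs 12.5 Mb, and by definition their one-sided peaks cannot overlap. No overlap from placement alone is given beside these numbers, so whether the runs of both tissues lie apart was not tested. Peaks in runs recurred elsewhere about as often as those outside, in 70.6% and 69.2% of cases in the CNS and 68.9% and 68.6% in the late embryo. Their median scores were 11.6 in runs and 11.7 outside in the CNS, and 18.1 and 16.5 in the late embryo.

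The largest CNS run spanned 112 kb at 2L 10327820 to 10439544. It held 25 one-sided peaks among 29 CNS peaks, against 6 late embryo peaks. The scores of the 25 summed to 501. Of the 25, 17 were also eye-antennal disc peaks, 8 were found at 2 to 4 h and 4 at 6 to 8 h. The leg, haltere and wing discs had 7, 3 and 3 of them, and the pharate leg, haltere and wing 9, 8 and 10. The span was not poor in peaks elsewhere, with 22 in the eye-antennal disc and 28, 41 and 33 in the pharate leg, haltere and wing. Its strongest member, 2L 10426138 to 10426997 (75.9), recurred in 7 lists. On the same arm and 48.8 kb before it lay the fifth run, at 2L 10250379 to 10279019, in which 12 of 13 CNS peaks were one-sided. A run on X, at 5762085 to 5794397, tied with it at 12 and ranked below it by summed score. Of the 12 one-sided peaks in the fifth run on 2L, 10 were eye-antennal disc peaks, 0 were leg or wing disc peaks and 1 was a haltere disc peak.

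On 3L a pair of CNS runs lay 13.4 kb apart. The second largest run, at 3L 10260907 to 10333774, had 18 one-sided peaks among 25, against 12 late embryo peaks, and 14 of the 18 were in no other list. The strongest CNS peak of all, the shared one described above, lies inside it. The neighbouring run at 3L 10218226 to 10247514 had 9 one-sided peaks among 11 with the second largest summed score (242). Its strongest member, 3L 10221761 to 10222611 (60.6), recurred in 2 lists. Among the 5 CNS runs with most peaks were also X 7570305 to 7614631, with 15 of 23 peaks one-sided and 8 of these in no other list, and 2R 2026959 to 2057235, with 13 of 17.

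The largest late embryo run was on X, at 1846822 to 1898971, where 23 of 24 late embryo peaks were one-sided and the CNS had 1 peak. The scores of the 23 summed to 1916, the largest sum of the late embryo runs. The strongest member of the run, X 1885443 to 1886594 (480), recurred in 8 lists. The span held 3 eye-antennal disc peaks, 12 to 14 in each appendage disc and 24 to 30 in each pharate appendage. Of the 23 one-sided peaks themselves, 13, 15 and 13 were found in the pharate leg, haltere and wing. In the leg, haltere and wing discs 10, 11 and 11 of them were found, 10 at 6 to 8 h and 3 in the eye-antennal disc. At 2R 11607571 to 11677476 all 21 late embryo peaks were one-sided and the CNS had 0. The eye-antennal disc had 2 peaks there, the appendage discs 9 to 13, and the pharate leg, haltere and wing 29, 17 and 14. Of the 21 one-sided peaks themselves, 9, 7 and 5 were found in the pharate leg, haltere and wing. At 3R 5676669 to 5761597, 22 of 28 late embryo peaks were one-sided against 6 CNS peaks, and its strongest member, 3R 5699749 to 5700912 (390), recurred in all 9 other lists. At 2R 11919756 to 11993807, 21 of 27 were one-sided, and 13 of the 21 were found at 6 to 8 h but 1 in the eye-antennal disc. The fifth run, X 12561524 to 12625596, had 20 of 26 one-sided beside 15 CNS peaks. The run with the second largest summed score (1318), 2R 20206557 to 20232071, had 16 of 17 one-sided in 25.5 kb and holds the peak of 509 named above.

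**Figure D5:**
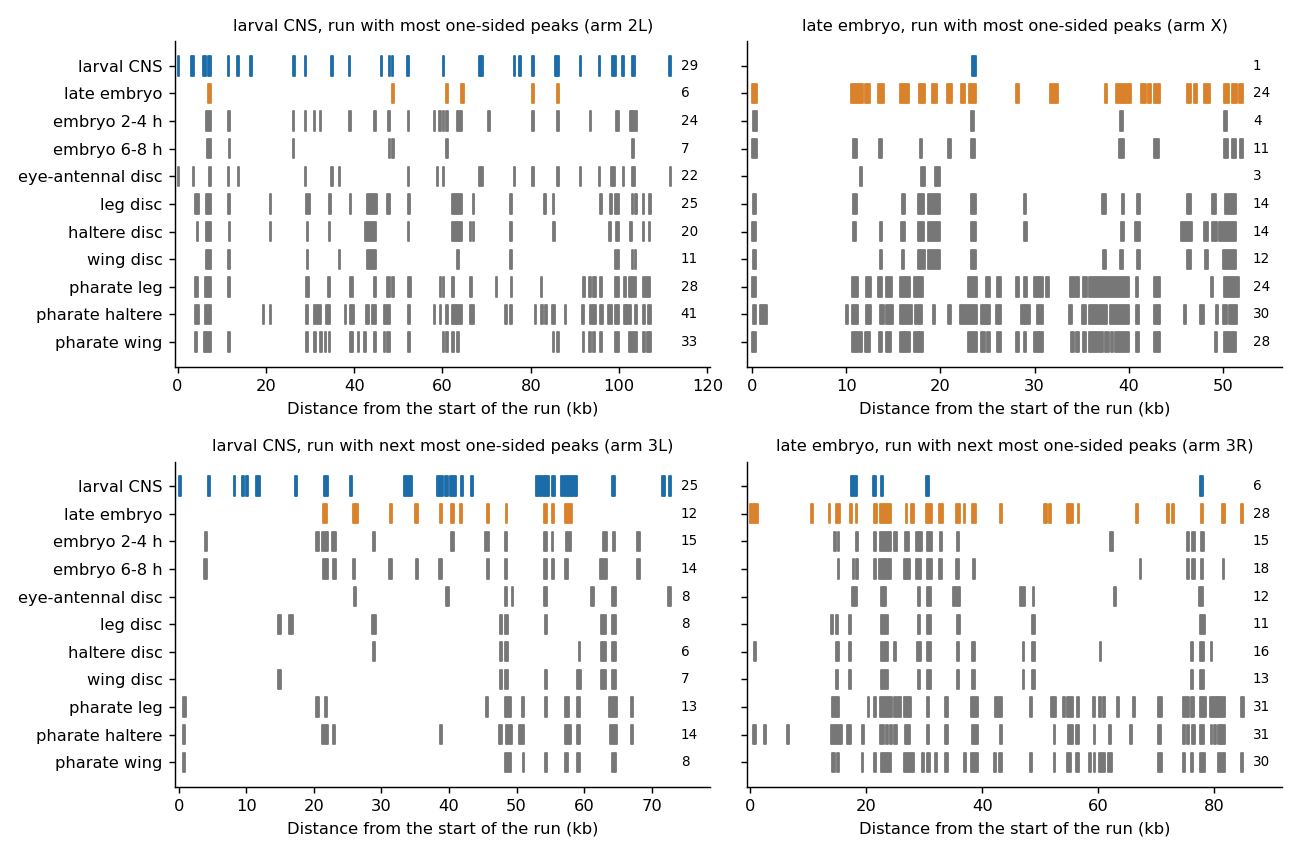
Peaks of the 11 FAIRE lists in the 2 largest runs of one-sided larval CNS peaks (left) and of one-sided late embryo peaks (right), drawn to scale along the distance from the start of the run (horizontal axis, kb), 1 row per list, with the number of peaks at the right of each row. In the largest CNS run the CNS has 29 peaks, the late embryo 6 and the eye-antennal disc 22; in the largest late embryo run the CNS has 1, the late embryo 24 and the pharate haltere 30.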

How the data were processed

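The deposited peak lists gave a position and a score per peak. Peaks carried MACS names in the files. Tools named for the series in the submitters' processing notes were MACS2, Bowtie 0.12.3 and CASAVA 1.7, with the build dm3. How replicates were combined, which control and threshold were used and what the score measures are not given in the sources used here. Embryo RNA-seq was deposited as FPKM per the file headers, 1 value per gene and stage, and the same notes also name TopHat 1.1.4 and Cuffdiff. Of 13934 gene entries, 13686 had a name that occurs once and were used.

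Overlaps, distances and runs were computed with Python 3.11.15, numpy 2.4.6 and pandas 2.3.3, and intervals with scipy 1.17.1. The code was tested on simulated data. Coordinates are of dm3 and counted from 1. No annotation or genome of dm3 was used, so peaks carry no genes. Regions named were the 5 best one-sided peaks, the 3 best shared peaks, the 3 best one-sided peaks in all or in none of the other 9 lists, and the 5 largest runs by number and 3 by summed score of each list. Regions, marker lists and comparisons were chosen with earlier results of these data known. Alternatives tried were a 50% cover, the central 200 bp, a distance of 1 kb, the 9000 best or better 50% of peaks, other gaps, pseudocounts and filters, and, added later, leaving out lists.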

Additional observations from a re-analysis of the deposited data

Results flagged for a closer look

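The larval CNS list held 211 peaks outside the 6 arms, a signal in data that the comparisons do not use and for which there was no control list. Of these, 136 lay on unplaced sequence, 66 on heterochromatic scaffolds and 9 on the mitochondrial genome. Their median score was 12.6 and their highest 204, above the highest score on the arms (133.1). The late embryo list held 0 such peaks, and its peak names skip 1297 numbers, all of them between chromosomes. The eye-antennal disc list held 455 peaks outside the arms, and the remaining 8 lists 0.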

How the results depend on the processing

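Every share of peaks moved beyond its counting interval when the definition of a shared peak changed. Overlaps are nearly one to one, so which list has the higher share follows from the list lengths. The shared part of CNS peaks was 38.4% with at least 50% of the peak covered, 35.7% over the central 200 bp and 61.4% with peaks within 1 kb counted. It was 36.9% with both lists cut to their 9000 best peaks and 38.8% with both cut to their better-scoring 50%. With such cuts, a peak counted as one-sided where it met only a lower-scoring peak that had been left out. For late embryo peaks the values in the same order were 29.6%, 26.4%, 44.6%, 36.5% and 29.2%. The median score of one-sided over shared peaks was 0.68 in the CNS and 0.57 in the late embryo. It became 0.71 in the CNS with 50% cover and 0.71 over the 9000 best, and 0.595 in the late embryo with 50% cover. Runs numbered 84 in the CNS and 226 in the late embryo with gaps of 5 kb, and 351 in the CNS with gaps of 20 kb. The 9000 best peaks gave 196 late embryo runs, which turned the order of the tissues. Recurrence of one-sided CNS peaks was 62.8% with 50% cover, 68.2% over the 9000 best and 53.5% without the eye-antennal disc list. For the late embryo it was 66.4%, 61.7%, and 56.8% without the earlier embryo lists. Leaving out lists was chosen after seeing the data. The count of 15 neural markers held with a pseudocount of 0.1 and without a filter. No paired analysis was possible because each tissue had 1 list, and no library could be left out. List lengths limit all counts, since read depth was not known.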
